A study of Saccharomyces cerevisiae with 44 samples.

Results

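The 22 genes of the mitochondrial genome that the count table holds were followed through total RNA and Yra1 pulldowns. They were chosen as the rows whose identifier starts with Q0 or YNCQ, which gave 22 of 6461 genes, all of them Q0 rows. The study asked which RNAs are carried by Yra1, an mRNA export adaptor, together with Cbp80, which binds the mRNA cap in the nucleus as part of a heterodimer with Cbp20, or with Hpr1, a subunit of the THO complex. Lysate of cryo-ground yeast, grown in YPD at 30 °C and crosslinked with 0.2% formaldehyde, was purified through a protein A (PrA) tag on Cbp80 or Hpr1 and then with an anti-Yra1 antibody. Total RNA came from 7.5% of the same lysate, and all libraries were made with a 3′-end tag kit that carries unique molecular identifiers (UMIs).

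All 5 genotypes, each of them 1 strain in the BY4741/2 background, carried SNAPf-YRA1. They were CBP80-PPX-PrA with tho2Δ, tho2Δ without a PrA tag, CBP80-PPX-PrA, HPR1-PPX-PrA, and SNAPf-YRA1 alone (no tag, wild type). The no-tag strains went through the same 2 purification steps and give the background of the pulldown. Each of the 10 groups (5 strains, pulldown and total RNA) had 3 biological replicates. Gene counts per library ran from 23769 to 459999 in pulldowns and from 423380 to 650795 in total RNA, and the no-tag tho2Δ pulldowns were the shallowest. THO2 held 0 to 1 counts in the 6 tho2Δ total RNA libraries, against 64 to 88 in the 9 wild-type ones.

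Yeast mitochondria transcribe their own genome with a dedicated polymerase, and its RNAs are made, processed and translated inside the organelle. The genome encodes both mitochondrial ribosomal RNAs, the core subunits of the respiratory chain and ATP synthase, 1 ribosomal protein and the RNA of mitochondrial RNase P. Several of its genes hold introns with reading frames of their own, and many of these frames continue from the upstream exon. Its mRNAs carry no cap and no long poly(A) tail and end at a conserved sequence of 12 bases.

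The mitochondrial genome of RefSeq build R64, the build the counts were made on, is 85779 bases long and 82.9% A+T, and every member lies on its plus strand. The sequences below show the letters around the end of several mRNAs. Among all 12-mers in the 1000 bases after the stop codon of the 8 core protein genes, AATAATATTCTT was found after 6 of them, and 2 12-mers were tied at that number. It lay 68 bases after COX1, 97 after COB, 62 after COX2, 100 after COX3, 86 after ATP6 and 579 after VAR1, and was not found after ATP8 or OLI1. On the whole genome it matched 9 times on the plus strand and 2 times on the minus strand, and 10.5% of all windows of 1000 bases held it. The stretches after 4 of the genes, with the 12-mer in capitals, were:
COX1 downstream (MT:26761-26790, plus strand): taatataatAATAATATTCTTataaaaata
COX2 downstream (MT:74567-74596, plus strand): aataattatAATAATATTCTTaaatataat
COX3 downstream (MT:80114-80143, plus strand): tattattatAATAATATTCTTacaaatata
ATP6 downstream (MT:29344-29373, plus strand): cccccttttAATAATATTCTTttatctaat
The stretches after COX1, COX3 and ATP6 lie outside the members' gene models, and that after COX2 lies within the model of Q0255 (MT:74495-75984).

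The library kit primes cDNA with oligo(dT), so the longest run of A was also read, in the exon that each gene shares with no other gene. It was 10 bases in 21S_RRNA and in AI5_BETA, 9 in VAR1, 7 in AI1 and 5 in COX1. Across the 22 members the longest run had a Spearman rho of 0.18 with the summed counts in total RNA, and the length of exon not shared with another gene had 0.72, both given as a description of 22 genes of 1 genome. The runs are shown in capitals with 20 bases on either side, for the gene with most counts, the reading frame with most counts, and a gene with a long run and hardly any counts:
21S_RRNA (MT:60328-60377, plus strand): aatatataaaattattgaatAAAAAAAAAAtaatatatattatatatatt
AI1 (MT:14955-15001, plus strand): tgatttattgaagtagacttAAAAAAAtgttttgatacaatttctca
VAR1 (MT:49478-49526, plus strand): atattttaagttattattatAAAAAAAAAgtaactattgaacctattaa
VAR1, with a run of 9, held 2 counts in all total RNA libraries together, and whether priming inside a gene set any of these counts was not tested.

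The counts fell almost wholly on 2 members. In the 15 total RNA libraries the 22 genes held 134161 counts, and 21S_RRNA (Q0158, MT:58009-62447), the RNA of the large mitochondrial ribosomal subunit, held 84131 of them. AI1 (Q0050, MT:13818-16322), the reading frame of the first COX1 intron, a group II intron protein that acts as maturase and reverse transcriptase, held 40650. Together they took 96.8% of the members' counts in pulldowns, where the members held 1320 counts in all, and 93.0% in total RNA.

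The genes that define the organelle's own protein products held few counts in these libraries. Reads that lie past the end of a gene model are not counted for that gene. A low count therefore does not show that the mRNA was absent, and where its reads fell was not tested. The 8 core genes held 1 count in pulldowns and 885 in total RNA, where 6 of the 8 were under 11 counts. ATP6, a membrane subunit of ATP synthase, had 600 counts and COX2, a catalytic subunit of cytochrome c oxidase, 261. COX3 had 10 counts, COX1 7, OLI1 (ATP synthase subunit 9) 3, and COB (cytochrome b) and VAR1 (a protein of the small ribosomal subunit) 2 each. ATP8, a further ATP synthase subunit, had none in 15 libraries. RPM1, the RNase P RNA, had 1 count.

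By class, the 10 intron reading frames held 48422 counts in total RNA, which was 98.2% of the counts on reading frames. AI2, the reading frame of the second COX1 intron and another maturase, had 5455 counts, AI3 586 and BI4, a maturase encoded in a COB intron, 551. AI4, AI5_ALPHA, BI2, AI5_BETA and BI3 had between 60 and 369, and SCEI, the homing endonuclease in the intron of 21S, had 0. Q0255, a further reading frame, had 9 counts. The 15S_RRNA (Q0020, MT:6546-8194), the RNA of the small subunit, had 713, so that 21S held 118 times as many counts as 15S.

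Per kilobase of exon shared with no other gene, no-tag wild-type total RNA had 2886 CPM (counts scaled to a library of 1000000 gene counts) on 21S_RRNA and 2052 on AI1. The same measure was 264 on AI2, 76.7 on ATP6, 40.9 on 15S_RRNA and 33.2 on COX2. Each read of this kit is a tag from 1 priming place, so a level per kilobase compares these genes only loosely. In the counting mode used, reads that lie wholly on sequence shared by several gene models are counted for none of them. Such ambiguous reads numbered 283 to 552 in each total RNA library, over all genes. Of the 1605 bases of COX1 exon only 633 belong to COX1 alone, and of the 1158 of COB only 402, because the intron frames share the upstream exons. The authors removed ribosomal RNA reads before mapping, and whether the mitochondrial rRNAs were among the sequences removed is not given in the sources used here, so the levels of 21S and 15S are those of the reads that remained.

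**Figure D1:**
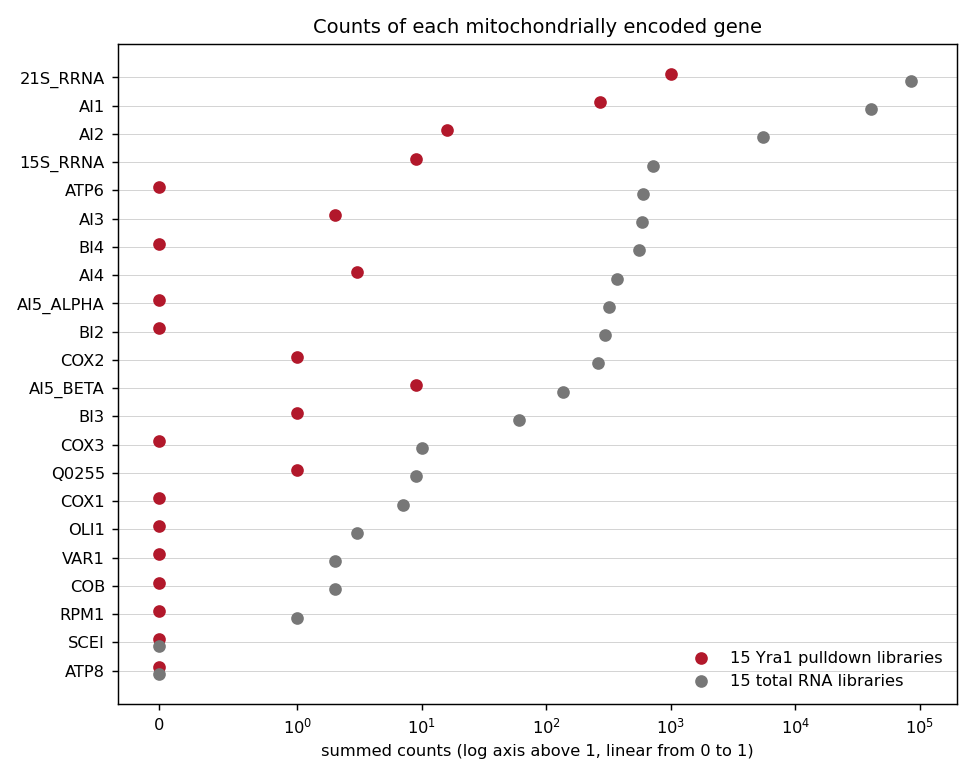
Summed counts of each of the 22 mitochondrially encoded genes (rows) over the 15 Yra1 pulldown libraries (red) and the 15 total RNA libraries (grey), on an axis that is logarithmic above 1. 21S_RRNA and AI1 reach 84131 and 40650 counts in total RNA, while 12 members have no count in any pulldown and 2 none in total RNA.

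In pulldowns, 21S_RRNA and AI1 were the only 2 of the 22 members with counts in all 15 libraries, and 10 members had any count. In total RNA, 13 had a count in every one of the 15 libraries and 20 had a count in at least 1.

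The share of gene counts on the 22 genes separated pulldowns from total RNA in every strain. In pulldowns it was 0.0281% ± 0.011 (SD, n = 3 here and below) in Cbp80-PrA tho2Δ, 0.455% ± 0.035 in no-tag tho2Δ, 0.0176% ± 0.0043 in Cbp80-PrA wild type, 0.0893% ± 0.0099 in Hpr1-PrA and 0.166% ± 0.029 in no-tag wild type. In total RNA it was 1.54% ± 0.16 in Cbp80-PrA tho2Δ, 2.64% ± 0.09 in no-tag tho2Δ, 1.62% ± 0.07 in Cbp80-PrA wild type, 1.61% ± 0.03 in Hpr1-PrA and 1.54% ± 0.20 in no-tag wild type. No pulldown library overlapped any total RNA library: the highest pulldown share was 0.495% and the lowest total RNA share 1.32%.

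The pulldown share was 92.4 times lower than that of its own total RNA in Cbp80-PrA wild type, 54.8 times lower in Cbp80-PrA tho2Δ, 18.0 times lower in Hpr1-PrA, 9.27 times lower in no-tag wild type and 5.79 times lower in no-tag tho2Δ. The order of the wild-type pulldowns, Cbp80-PrA lowest, then Hpr1-PrA, then no tag, held without overlap between libraries. Cbp80-PrA libraries had 0.0148% to 0.0226%, Hpr1-PrA libraries 0.0782% to 0.0972% and no-tag libraries 0.141% to 0.197%. These are shares of what was sequenced, and the amount of RNA recovered was not measured. Less mitochondrial RNA and more of other RNA cannot be told apart in them. Between strains in total RNA, fewer mitochondria and less RNA in each cannot be told apart either. No test was run on the summed share. Of 15 libraries of each kind, 13 total RNA libraries but only 1 pulldown library were read on 2 sequencers. Sequencer use therefore went largely with the kind of library, and its part in these differences was not tested.

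**Figure D2:**
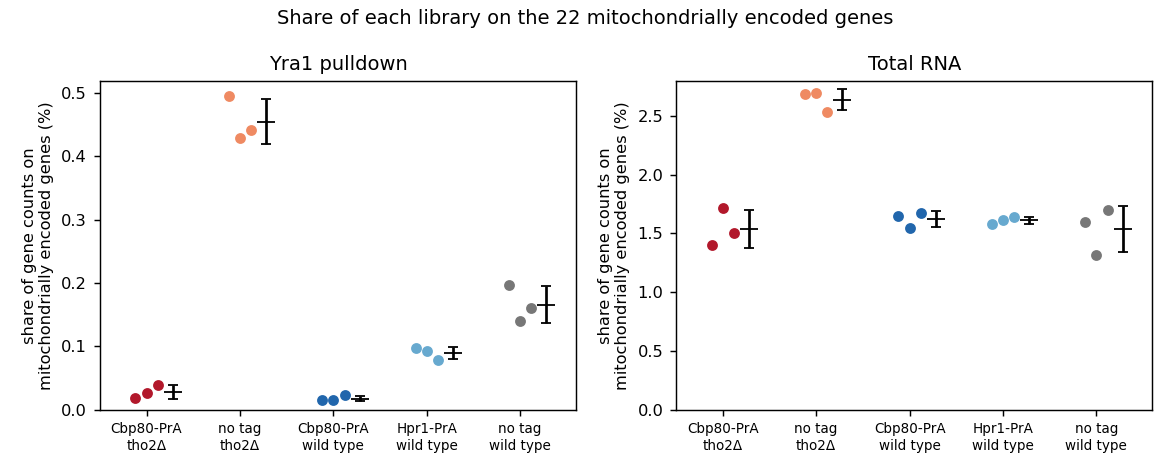
Share of gene counts on the 22 mitochondrially encoded genes (%) in each Yra1 pulldown library (left) and total RNA library (right), by strain, with the mean and SD of 3 replicates in black; the axes differ in scale. Pulldown shares lie between 0.0148% and 0.495% and total RNA shares between 1.32% and 2.69%, and no-tag tho2Δ is the highest strain in both panels.

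For single genes, 21S_RRNA had 117, 107 and 126 CPM in the Cbp80-PrA wild-type pulldowns, against 10558, 9851 and 10530 CPM in the matching total RNA. The Hpr1-PrA pulldowns had 755, 733 and 589 CPM, against 9925, 10250 and 10250 in total RNA. In the no-tag wild type it had 1520, 1056 and 1217 CPM in pulldowns, against 9838, 8293 and 10405 in total RNA. Pulldown and total RNA libraries were far apart in each of the 3 strains, and total RNA differed little among them.

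AI1 had 31.1, 41.3 and 96.3 CPM in the Cbp80-PrA wild-type pulldowns, against 4830, 4604 and 5171 CPM in total RNA. In Hpr1-PrA it had 205, 150 and 142 CPM in pulldowns, against 4852, 4799 and 5007 in total RNA. The no-tag wild type had 372, 296 and 383 CPM in pulldowns, against 5009, 4067 and 5302 in total RNA. The spread between Cbp80-PrA pulldowns was wide for AI1, which rested on 8, 19 and 29 counts there.

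A joint fit of all 30 libraries with the edgeR quasi-likelihood test, with p-values adjusted by Benjamini-Hochberg over 5501 genes, gave the size of these differences. Calls required both an adjusted p below 0.05 and a log2 fold change past 1 either way. The log2 fold change of pulldown over total RNA for 21S_RRNA was -6.71 ± 0.21 (SE) in Cbp80-PrA wild type (adjusted p = 3.55e-53), -4.13 ± 0.19 in Hpr1-PrA and -2.78 ± 0.18 in no-tag wild type. For AI1 it was -6.68 ± 0.24 in Cbp80-PrA wild type (adjusted p = 1.68e-44), -5.17 ± 0.24 in Hpr1-PrA and -3.65 ± 0.23 in no-tag wild type. Both genes fell in all 3 strains. The medians over all genes tested were -0.11, -0.09 and -0.62 in the same order of strains. Over the scalings tried they ran from -0.11 to 0.46, from -0.09 to 0.17 and from -0.76 to -0.36, and both genes stayed called.

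In the tho2Δ strains, 21S_RRNA had 154, 242 and 299 CPM in the Cbp80-PrA pulldowns, against 9345, 12059 and 10257 in total RNA. In no-tag tho2Δ it had 3804, 3113 and 3638 CPM in pulldowns, against 15931, 15896 and 14750 in total RNA. The log2 fold change of pulldown over total RNA was -5.61 ± 0.21 and -2.32 ± 0.18 (adjusted p = 1.42e-47 in Cbp80-PrA and 6.76e-22 in no tag, edgeR). AI1 had -6.75 ± 0.28 and -3.48 ± 0.22 in the same strains, and without Cbp80-PrA tho2Δ pulldown replicate 3 the first of these was -7.48.

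Much of each library moved in this comparison: 33.0% of the genes tested were called lower in the Cbp80-PrA wild-type pulldown than in its total RNA, 25.1% in Hpr1-PrA, 30.2% in no-tag wild type, 32.7% in Cbp80-PrA tho2Δ and 30.9% in no-tag tho2Δ. Among the 4926 genes that averaged 20 CPM or more, 7 had a lower fitted log2 fold change than 21S_RRNA in Cbp80-PrA wild type and 8 a lower one than AI1. In Hpr1-PrA these numbers were 43 and 16. In the no-tag wild type they were 695 and 428, so both RNAs stood nearer to the middle of the background pulldown.

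The other members were too rare in pulldowns for a fitted value to be a bound. In the fit of all libraries 12 members passed the filter on low counts, and only 21S_RRNA and AI1 also passed it among pulldowns alone, so the number called lower there (12 in Cbp80-PrA wild type, 11 in Hpr1-PrA) says nothing further. From the counts themselves, ATP6 had 0 counts in the Cbp80-PrA wild-type pulldowns against 84 in total RNA, which made it at least 19.7-fold lower (3 counts over the group as the floor). In the same strain 15S_RRNA was at least 30.2-fold lower, BI4 at least 22.3-fold, AI4 at least 19.7-fold and COX2 at least 8.20-fold. AI2 had 3 counts against 871, a ratio of 204-fold lower (95% exact counting interval 69.6 to 992).

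In the shallower no-tag wild-type pulldowns, ATP6 was at least 3.40-fold lower and BI4 at least 4.15-fold lower than in total RNA. AI2 had 2 counts against 1005 there, 53.9-fold lower (interval 14.9 to 446). For AI5_BETA and BI3 no difference was detectable there at this depth. AI5_BETA had 4 counts in no-tag wild-type pulldowns against 36 in total RNA. Scaled to gene counts, its ratio of total RNA to pulldown was 0.966 (interval 0.346 to 3.73), so marginally higher in pulldowns. BI3 had 1 count against 17 and was 1.82-fold lower in pulldowns (interval 0.286 to 76.2). The AI5_BETA counts were 3 against 24 in Hpr1-PrA, 1.73-fold lower (interval 0.526 to 8.99), and 0 against 24 in Cbp80-PrA wild type, at least 5.62-fold lower. These intervals cover counting error only, not the spread between replicates.

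**Figure D3:**
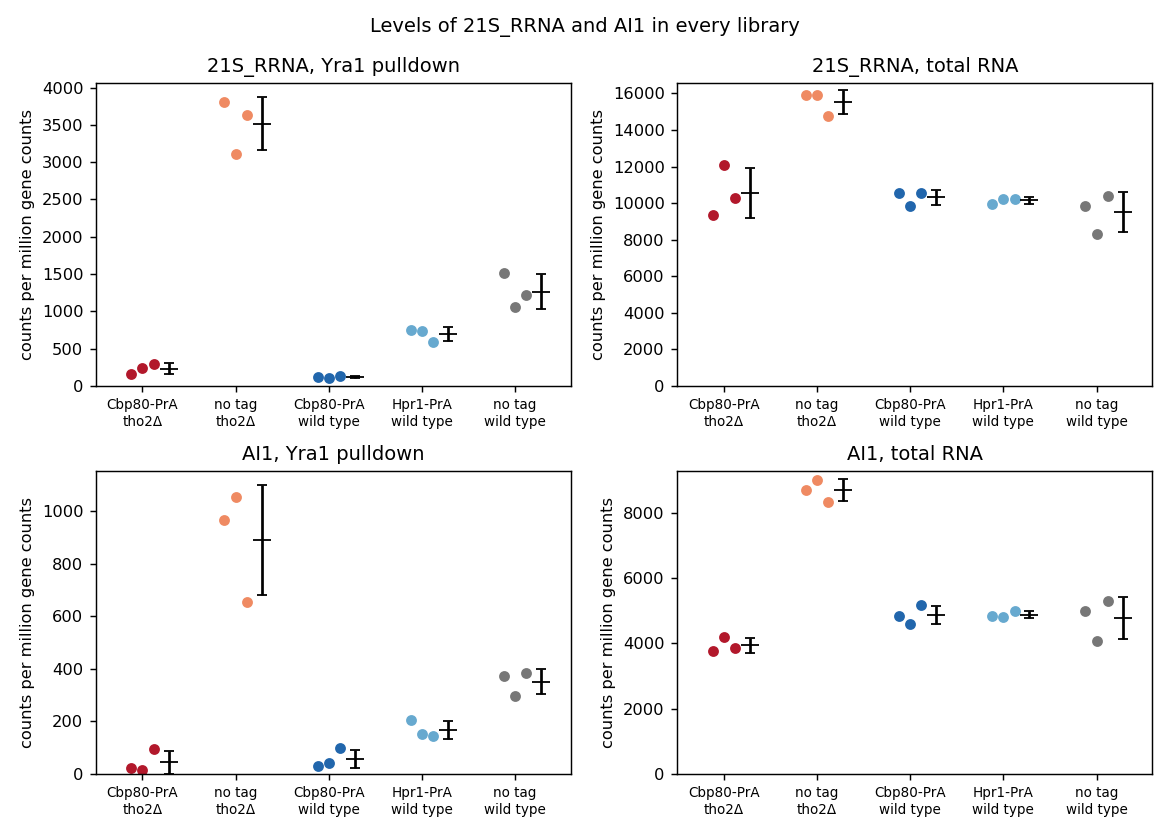
CPM on 21S_RRNA (top) and AI1 (bottom) in every Yra1 pulldown (left) and total RNA library (right), by strain, with the mean and SD of 3 replicates in black; each panel has its own axis from 0. Cbp80-PrA pulldowns lie at 107 to 299 CPM for 21S_RRNA and no-tag pulldowns at 1056 to 3804, and no-tag tho2Δ is above every other strain in all 4 panels.

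Among pulldowns alone, 2 of the 22 members could be tested, and both fell with either tag. AI1 passed the filter on low counts through the no-tag and Hpr1-PrA groups, not through either Cbp80-PrA group. The comparisons of AI1 with Cbp80-PrA therefore rest on a gene kept through groups where it was high. That both members fell with Cbp80-PrA adds no support. In the fit of the 15 pulldown libraries (2997 genes), Cbp80-PrA over no tag in wild type gave a log2 fold change of -3.94 ± 0.27 for 21S_RRNA (adjusted p = 1.59e-19, edgeR quasi-likelihood, 3 libraries against 3) and -3.13 ± 0.38 for AI1 (adjusted p = 2.45e-09). In this comparison 25.1% of all genes tested were called lower. Of 2996 genes averaging 20 CPM or more, 5 had a lower fold change than 21S_RRNA, and 40 a lower one than AI1.

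Hpr1-PrA over no tag gave -1.44 ± 0.25 for 21S_RRNA (adjusted p = 4.76e-06) and -1.67 ± 0.38 for AI1 (adjusted p = 0.000515), where 17.0% of genes were called lower. Of the same 2996 genes, 324 had a lower fold change than 21S_RRNA and 194 a lower one than AI1. With library totals as the only scaling, 21S_RRNA changed by -0.79 and lost its call. Set against each other, Hpr1-PrA pulldowns held more of both RNAs than Cbp80-PrA pulldowns, by 2.51 ± 0.27 for 21S_RRNA (adjusted p = 4.25e-12) and 1.47 ± 0.38 for AI1 (adjusted p = 0.00129), where 19.2% of genes were called higher.

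These values depend in part on the scaling. The median of all genes tested was 0.18 for Cbp80-PrA over no tag in wild type and ran from 0.17 to 0.96 under the scalings tried, and 21S_RRNA stayed between -4.38 and -4.13 relative to that median. For Hpr1-PrA the median ran from 0.24 to 0.90 and 21S_RRNA between -1.79 and -1.68 relative to it. The no-tag pulldowns were also the shallowest: the 21S_RRNA values rest on 30, 49 and 38 counts in Cbp80-PrA and 59, 103 and 58 in Hpr1-PrA, against 94, 75 and 54 in no-tag wild type.

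In tho2Δ the gap between Cbp80-PrA and no-tag pulldowns was found again, with the same limit of the filter for AI1. 21S_RRNA fell by 4.08 ± 0.27 (adjusted p = 3.41e-20) and AI1 by 4.65 ± 0.41 (adjusted p = 1.03e-12) on the log2 scale, where 20.9% of genes were called lower. Without Cbp80-PrA tho2Δ pulldown replicate 3 the AI1 value was -5.42. The difference between this ratio and that in wild type was -0.14 ± 0.38 for 21S_RRNA (adjusted p = 0.915) and -1.52 ± 0.58 for AI1 (adjusted p = 0.149), so 0 of 2 were called, where 4.34% of genes were and 1 of the 2 had an unadjusted p under 0.05. DESeq2 called 0 of them as well. For AI1 the approximate 95% interval of that difference ran from -2.65 to -0.38, and without Cbp80-PrA tho2Δ pulldown replicate 3, which held 11 of the group's 19 counts, it was -2.54 with an adjusted p of 0.00305.

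Comparing tho2Δ with wild type, the no-tag pulldown held more 21S_RRNA: 3804, 3113 and 3638 CPM in tho2Δ, against 1520, 1056 and 1217 in wild type. The log2 fold change was 1.10 ± 0.25 (adjusted p = 0.00462), in a comparison where 0.801% of genes were called higher. Without no-tag wild-type pulldown replicate 2 it was 0.99 with an adjusted p of 0.0613. AI1 had 964, 1052 and 653 CPM in tho2Δ, against 372, 296 and 383 in wild type, with no overlap, and its log2 fold change of 0.97 ± 0.35 had an adjusted p of 0.161. In the Cbp80-PrA pulldowns 21S_RRNA differed by 0.97 ± 0.28 (adjusted p = 0.00452), under the fold threshold, and AI1 by -0.55 ± 0.47 (adjusted p = 0.395). The fit called 0 of the 2 there, where 18.0% of genes were called, and 1 of the 2 had an unadjusted p under 0.05. Leaving out 1 library changed this 3 times: 21S_RRNA was called higher without wild-type replicate 3 (1.04) or tho2Δ replicate 1 (1.21), and AI1 was called lower without tho2Δ replicate 3 (-1.48). Without wild-type replicate 3 the AI1 value was 0.039.

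The ratio of 21S_RRNA to AI1 counts is given as a description, with no test. Cbp80-PrA tho2Δ pulldowns gave 3.18 to 17.5, the highest of them on 2 AI1 counts, and no-tag tho2Δ pulldowns 2.96 to 5.57. It was 1.31 to 3.75 in Cbp80-PrA, 3.69 to 4.90 in Hpr1-PrA and 3.18 to 4.09 in no-tag wild-type pulldowns. The 15 total RNA libraries lay between 1.76 and 2.88. In Cbp80-PrA wild type the pulldown ratios (3.75, 2.58 and 1.31) lay on both sides of those in total RNA (2.04 to 2.19), and in each of the other strains every pulldown ratio was above every total RNA ratio.

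In total RNA, the 12 members that could be tested were all higher in no-tag tho2Δ than in no-tag wild type, and 4 of them rose past both thresholds. BI3 had counts in every total RNA library but was left out by the filter. It was not higher, with a mean of 10.3 CPM in no-tag tho2Δ against 10.7 in no-tag wild type. COX2 had 58.8, 73.5 and 85.03 CPM in tho2Δ, against 33.9, 7.68 and 31.9 in wild type, and ATP6 had 171, 131 and 123 CPM in tho2Δ, against 73.4, 33.8 and 72.3. The small-subunit rRNA 15S_RRNA had 158.5, 131 and 172 CPM in tho2Δ, against 75.3, 46.1 and 80.8. In all 3 genes every tho2Δ library lay above every wild-type library. The 3 were taken from the 4 called, and the share of all genes separated in this way was not counted, so this adds no support.

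The log2 fold changes were 1.54 ± 0.32 for COX2 (adjusted p = 0.000300), 1.22 ± 0.21 for ATP6 (adjusted p = 1.82e-05), 1.15 ± 0.19 for 15S_RRNA (adjusted p = 1.17e-05) and 1.11 ± 0.25 for BI2, a reading frame in a COB intron (adjusted p = 0.000641; edgeR over 4792 genes). In this comparison 3.86% of genes were called higher. By adjusted p alone 9 of the 12 were higher, against 11.8% of all genes. The 5 that this adds were 21S_RRNA (0.63 ± 0.09, adjusted p = 6.44e-07), AI1 (0.78 ± 0.09), AI2 (0.97 ± 0.11), AI3 (0.72 ± 0.17) and BI4 (0.62 ± 0.20). The median of the 12 was 0.75, against 0.00 over all genes tested.

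AI4, AI5_ALPHA and AI5_BETA, from the later COX1 introns, had 0.33 ± 0.23, 0.40 ± 0.22 and 0.14 ± 0.43. Their adjusted p-values were 0.334, 0.210 and 0.864, and AI5_BETA was negative without no-tag wild-type replicate 2 (-0.10) or tho2Δ replicate 2 (-0.25). The no-tag wild-type replicate 2 had the lowest share of mitochondrial counts of its group, 1.32% against 1.60% and 1.70%. Without it 2 members were called, since ATP6 differed by 0.90 and 15S_RRNA by 0.91. Without no-tag tho2Δ replicate 3 BI2 differed by 0.88 and was not called. In bulk RNA, more mitochondria per cell and more RNA in each cannot be told apart.

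In the Cbp80-PrA background the same deletion gave the opposite sign for 10 of the 12, of which 15S_RRNA (0.013) and 21S_RRNA (0.050) were positive without tho2Δ replicate 1. AI1 had 3768, 4191 and 3869 CPM in tho2Δ, against 4830, 4604 and 5171 in wild type, a log2 fold change of -0.38 ± 0.09 (adjusted p = 0.000888). AI4 fell by 1.05 ± 0.25 (adjusted p = 0.00124) and was the only member called, where 2.17% of genes were called lower. Without Cbp80-PrA wild-type replicate 2 or tho2Δ replicate 1, or with library totals as the scaling, it was not called (-0.998, -0.89 and -0.97). By adjusted p alone AI3 (-0.96 ± 0.22) and AI5_ALPHA (-0.82 ± 0.28) joined AI4 and AI1, so 4 were lower, against 13.5% of all genes.

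21S_RRNA had 9345, 12059 and 10257 CPM in Cbp80-PrA tho2Δ, against 10558, 9851 and 10530 in wild type. Its log2 fold change was -0.04 ± 0.09 (adjusted p = 0.804), with a sign that turned under other scalings (-0.04 to 0.03) and without tho2Δ replicate 1, and had an approximate 95% interval from -0.21 to 0.14. COX2 and ATP6, with 0.29 ± 0.37 and 0.23 ± 0.24, were the 2 members on the positive side.

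**Figure D4:**
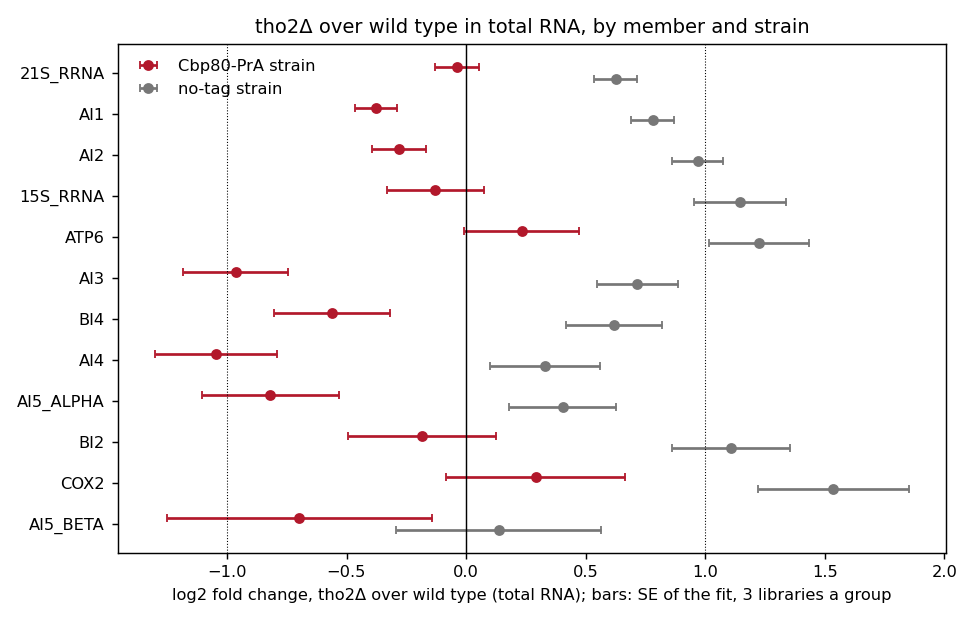
Log2 fold change of tho2Δ over wild type in total RNA for the 12 members that could be tested, ordered by their counts, in the Cbp80-PrA strain (red) and the no-tag strain (grey); bars are the SE of the fit and dotted lines the threshold of 1 either way. All 12 no-tag values are above 0, from 0.14 to 1.54, and each lies to the right of the Cbp80-PrA value of the same gene.

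The difference between the 2 backgrounds was tested as an interaction, a comparison added after the values were seen. All 12 members had a negative interaction, 8 of them past both thresholds, where 1.36% of genes were called lower, and 10 by adjusted p alone, where 4.28% were. The values of the best counted intron frames were AI1 (-1.16 ± 0.13, adjusted p = 7.94e-09), AI2 (-1.25 ± 0.16, adjusted p = 1.92e-07) and AI3 (-1.68 ± 0.28, adjusted p = 2.41e-05). 21S_RRNA differed by -0.66 ± 0.13 (adjusted p = 0.000251). The direct comparison of the 2 tho2Δ strains showed the same gap: in Cbp80-PrA tho2Δ 8 of the 12 were called lower than in no-tag tho2Δ, where 1.46% of genes were. AI1 differed by -1.14 ± 0.09 there (adjusted p = 3.37e-13) and AI3 by -1.79 ± 0.19. These 3 comparisons share libraries and are not independent of each other.

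In wild-type total RNA no member was called between tagged and no-tag strains. Cbp80-PrA over no tag gave 0.11 ± 0.09 for 21S_RRNA and 0.02 ± 0.09 for AI1, and the 12 members ran from -0.40 to 0.43. Hpr1-PrA over no tag gave 0.09 ± 0.09 and 0.02 ± 0.09, with a range from -0.41 to 0.31. The edgeR test called 0 of 12 members in either comparison, and 0.00% of all genes; at an unadjusted p under 0.05 it found 1 member (15S_RRNA) and 310 genes for Cbp80-PrA and 0 members and 196 genes for Hpr1-PrA. DESeq2 called 0 members and 0 genes in both.

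Other measures moved with the gap between the tho2Δ strains. In Cbp80-PrA tho2Δ the 389 genes tested on chromosome XVI had a median log2 fold change of 0.95 over Cbp80-PrA wild type, while the other 15 nuclear chromosomes had medians from -0.28 to 0.03. In no-tag tho2Δ the chromosome XVI median was 0.00. Each genotype is 1 strain, and both tho2Δ strains carry the deletion. For the gap between them, the Cbp80-PrA tag, the chromosome XVI level and any other strain feature cannot be told apart. Against wild type, the deletion and other features of each tho2Δ strain cannot be told apart either. The part of chromosome XVI in the mitochondrial values was not tested. All but 2 total RNA libraries were read on 2 sequencers. Those 2, no-tag tho2Δ replicate 3 and Cbp80-PrA tho2Δ replicate 1, were read on 1: leaving out the first gave an AI1 interaction of -1.20, and leaving out the other gave -1.12.

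**Figure D5:**
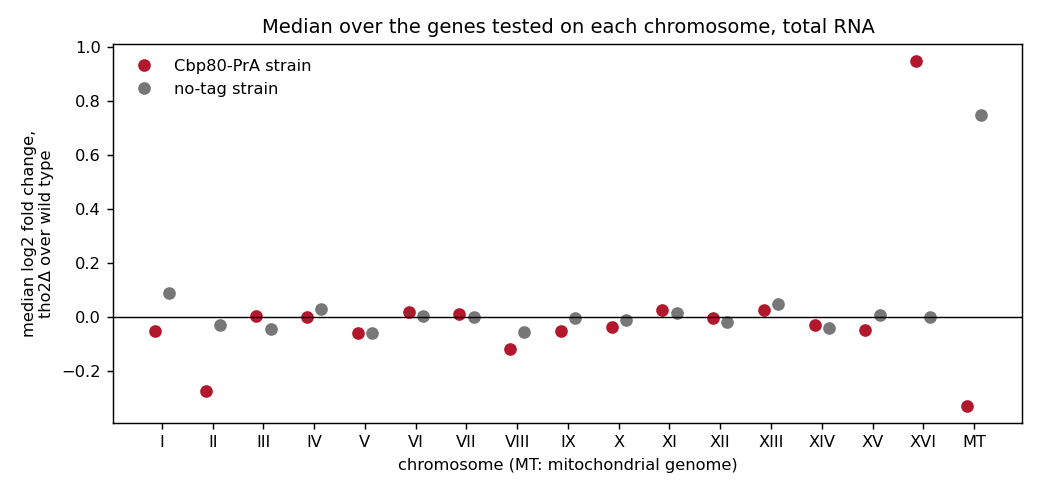
Median log2 fold change of tho2Δ over wild type in total RNA over the genes tested on each chromosome, in the Cbp80-PrA strain (red) and the no-tag strain (grey); MT is the mitochondrial genome with 12 genes. The mitochondrial median is -0.33 in Cbp80-PrA and 0.75 in no tag, and chromosome XVI stands at 0.95 in Cbp80-PrA and 0.00 in no tag.

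Whether the no-tag pulldown rose more than its total RNA in tho2Δ was asked in the joint fit, also added after the values were seen. The difference of the pulldown over total RNA ratio, tho2Δ minus wild type, was 0.46 ± 0.25 for 21S_RRNA (adjusted p = 0.877) and 0.16 ± 0.33 for AI1 (adjusted p = 0.996). edgeR and DESeq2 each called 0 genes (0.00% of 5501). By edgeR 317 genes and 0 members had an unadjusted p under 0.05.

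Nuclear genes whose products work with the members gave the wider setting in total RNA. Of 28 tested nuclear-encoded subunits of the same complexes, 8 rose and 0 fell in no-tag tho2Δ over wild type, with a median of 0.74 against 0.00 over all genes, where 3.86% of genes were called higher and 1.21% lower. They were CYT1, cytochrome c1 (1.53 ± 0.21), INH1, the inhibitor of ATP synthase (1.70 ± 0.43), QCR2 and QCR9 of the cytochrome bc1 complex (1.29 ± 0.38 and 1.17 ± 0.22), ATP3 and ATP5 of ATP synthase (1.02 ± 0.16 and 1.05 ± 0.27), and COX5B and COX12 of cytochrome c oxidase (1.02 ± 0.15 and 1.03 ± 0.25). In Cbp80-PrA, where 5.34% of genes were called higher, 3 rose and 0 fell, with a median of 0.28: CYT1 (1.30 ± 0.23), ATP15 (1.71 ± 0.34) and ATP20 (1.76 ± 0.26).

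Of 30 tested factors of mitochondrial RNA synthesis, processing, decay and translation, 1 rose and 0 fell in no-tag tho2Δ: RPM2, the protein subunit of mitochondrial RNase P (1.05 ± 0.20), with a list median of 0.23. In Cbp80-PrA 1 rose and 0 fell: AEP3 (1.20 ± 0.33), which acts on the mRNA of ATP6 and ATP8, with a list median of 0.10. Neither count was above the share called higher over all genes, 3.86% in no tag and 5.34% in Cbp80-PrA. In Cbp80-PrA tho2Δ over no-tag tho2Δ, 2 factors were called higher, SUV3, the helicase of the mitochondrial RNA-degrading complex (1.12 ± 0.17), and AEP3 (1.05 ± 0.32), where 2.90% of genes were called higher. Both lie on chromosome XVI, whose median was 0.87 in this comparison. Of the 28 subunits tested there, 2 were called lower, INH1 (-1.99 ± 0.45) and COX5B (-1.73 ± 0.17), where 1.46% of genes were. By adjusted p alone 11 subunits were lower and 2 higher. The median of the subunits was -0.55, against -0.03 over all genes. Of 63 tested mitochondrial ribosomal proteins, edgeR called 0 in no-tag tho2Δ, with 10 higher by adjusted p alone, where 11.8% of all genes were. In Cbp80-PrA 4 rose, against the 5.34% of all genes. The 0 called in no-tag tho2Δ was below the 3.86% of all genes, and the 10 and the 4 were somewhat above their backgrounds. The list medians were 0.19 in no tag and 0.14 in Cbp80-PrA, and no set test was run. Of the 8 genes of the 3 lists called in Cbp80-PrA tho2Δ over wild type, 7 lie on chromosome XVI, against 1 of the 9 called in no-tag tho2Δ.

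As a description of likeness, the 5 genes whose log2 CPM over the 30 libraries correlated most with that of 21S_RRNA, among 4925 averaging 20 CPM or more, were TRP5 (Pearson r = 0.983), ZUO1 (0.981), AI1 (0.977), GUS1 (0.977) and RPN8 (0.974). AI1 was the only mitochondrial gene among them. The 30 libraries differ most between pulldown and total RNA, which these values share.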

How the data were processed

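RNA from 30 libraries (5 strains, pulldown and total RNA, 3 replicates each) was counted per gene by the authors with HTSeq 2.0.2 in the mode intersection-nonempty, after UMI extraction (UMI-tools 1.0.1), adapter and poly(A) trimming, removal of ribosomal RNA reads (bbsplit), mapping with STAR 2.7.10a to build R64 and removal of PCR duplicates. The deposited counts are whole numbers, not normalised; a second deposited table holds the same counts divided by 1 factor per library and was not used. The strand setting of the counting is not given in the sources used here. Reads in no gene (39.9% to 57.8% of each pulldown library and 44.0% to 49.6% of each total RNA library) stayed out of library sizes.

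Counts were tested with edgeR 4.0.16 (glmQLFit and glmQLFTest, robust, TMM factors, filterByExpr by group, Benjamini-Hochberg over all genes tested) in 3 fits: pulldowns, total RNA and all libraries. Calls required an adjusted p below 0.05 and a log2 fold change past 1 either way. The SE is the log2 fold change divided by the root of the F statistic. CPM are counts scaled to 1000000 gene counts. DESeq2 1.42.0, other scalings, no filter, subsets of libraries and a replicate block were alternatives. The scripts were tested on simulated data. Names, positions and sequences are from RefSeq R64, where 6458 of 6461 identifiers matched. Replicates are biological per the study methods. A pulldown and the total RNA of the same number share a lysate per the methods, which is a pairing by design; their deviations from the group means correlated at 0.0087 on average over 15 pairs. The members and lists were chosen with earlier results of these data known. Named were the 8 core protein genes, both rRNAs, RPM1 and every member past the filter, with others by class. Counting intervals are 95% exact binomial.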

Additional observations from a re-analysis of the deposited data

Results flagged for a closer look

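The effect of tho2Δ in total RNA differed between the Cbp80-PrA and the no-tag background for 10 of the 12 members tested, by the interaction term of the edgeR fit with an adjusted p under 0.05. On the log2 scale the difference, Cbp80-PrA minus no tag, was -1.68 for AI3, -1.38 for AI4, -1.29 for BI2, -1.27 for 15S_RRNA, -1.25 for AI2, -1.22 for AI5_ALPHA, -1.18 for BI4, -1.16 for AI1, -0.99 for ATP6 and -0.66 for 21S_RRNA. The differences of BI2 and AI5_ALPHA were the least stable: leaving out single libraries or using DESeq2 raised the adjusted p to between 0.0542 and 0.114. The comparison was added after the values were seen, and its cause was not tested.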

How the results depend on the processing

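A fold change took the opposite sign in 36 of the 1365 alternative values, which belonged to 21 of the 98 gene results. None of these 21 was called as reported and none was called with the opposite sign, and 27 of the 36 values were of tagged over no-tag strains in wild-type total RNA. The other alternatives left 1279 values on the same side of the thresholds, made 24 weaker and 26 stronger. With library totals as the only scaling 21S_RRNA had 0.035 for tho2Δ over wild type in Cbp80-PrA total RNA and ATP6 had 0.0030 for Cbp80-PrA over no tag in wild-type total RNA. Leaving out 1 library at a time, the log2 fold change of tho2Δ over wild type ran from -1.48 to 0.039 for AI1 in Cbp80-PrA pulldowns, from -0.22 to 0.013 for 15S_RRNA and from -0.15 to 0.050 for 21S_RRNA in Cbp80-PrA total RNA and from -0.25 to 0.36 for AI5_BETA in no-tag total RNA. The pulldown interaction ran from -0.47 to 0.12 for 21S_RRNA, and the tho2Δ difference of no-tag pulldown over total RNA from -0.024 to 0.30 for AI1. In wild-type total RNA, Cbp80-PrA over no tag ran from -0.094 to 0.099 for AI1, from -0.22 to 0.094 for AI2, from -0.90 to 0.021 for AI5_BETA, from -0.34 to 0.20 for ATP6, from -0.21 to 0.076 for BI2, from -0.37 to 0.11 for BI4 and from -0.45 to 0.42 for COX2. Hpr1-PrA over no tag ran from -0.086 to 0.11 for AI1, from -0.15 to 0.16 for AI2, from -1.21 to 0.0045 for AI5_BETA, from -0.087 to 0.45 for ATP6, from -0.27 to 0.13 for BI2, from -0.18 to 0.20 for BI4, from -0.0054 to 0.16 for 21S_RRNA and from -0.39 to 0.49 for COX2.

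The number of members called changed as follows, which shows only how these calls depend on the setting. Without a filter on low counts 4 members were called for Cbp80-PrA over no tag in wild-type pulldowns in place of 2, and 4 with the DESeq2 Wald test. With library totals as the only scaling 1 was called for Hpr1-PrA over no tag, 2 for tho2Δ over wild type in no-tag pulldowns, 1 for the pulldown interaction and 0 for tho2Δ over wild type in Cbp80-PrA total RNA. By adjusted p alone 1 was called for tho2Δ in Cbp80-PrA pulldowns, 9 for tho2Δ in no-tag total RNA and 4 for tho2Δ in Cbp80-PrA total RNA. With only the libraries of the groups compared, 1 was called for tho2Δ in Cbp80-PrA pulldowns, 2 for tho2Δ in no-tag pulldowns, 6 for no-tag wild-type pulldown over total RNA and 7 for Cbp80-PrA tho2Δ pulldown over total RNA, where fewer members passed the filter (7 of each). Over all genes, adjusted p alone called 930 in place of 538 for tho2Δ in Cbp80-PrA pulldowns, 1057 in place of 243 for tho2Δ in no-tag total RNA, 1326 in place of 360 for tho2Δ in Cbp80-PrA total RNA, 837 in place of 209 for Cbp80-PrA over no tag in tho2Δ total RNA and 460 in place of 195 for the total RNA interaction. DESeq2 called 126 for that interaction, and 24 in place of 54 for tho2Δ in no-tag pulldowns.

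Leaving out 1 library at a time, the number called ran from 0 to 1 for tho2Δ in Cbp80-PrA pulldowns, from 0 to 1 for tho2Δ in no-tag pulldowns, from 0 to 1 for the pulldown interaction, from 2 to 5 for tho2Δ in no-tag total RNA, from 0 to 2 for tho2Δ in Cbp80-PrA total RNA, from 7 to 9 for Cbp80-PrA over no tag in tho2Δ total RNA and from 6 to 9 for the total RNA interaction. The share of all genes called in each of these fits is not given here. The ranges therefore show only how far the calls on members depend on 1 library.

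Nothing in the labels ties a replicate number to a day or batch, and not every same-numbered pair correlated above 0.1, so the numbers were not used as pairs between strains. The correlation of deviations from the group mean averaged 0.0067 over same-numbered pulldowns, with 5 of 30 pairs over 0.1, and -0.0037 over different-numbered ones, with 6 of 60. In total RNA it averaged 0.063 over same-numbered libraries, with 7 of 30 pairs over 0.1 and a highest value of 0.306, against -0.031 over different-numbered ones, with 2 of 60 pairs over 0.1. With the replicate block the number of members called was 10 in place of 8 for Cbp80-PrA over no tag in tho2Δ total RNA, and it did not change in any other comparison (for tho2Δ in no-tag total RNA it was 4).

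Over all counts, reads in no gene included, the members' share was 0.0109% in Cbp80-PrA tho2Δ, 0.205% in no-tag tho2Δ, 0.00824% in Cbp80-PrA wild-type, 0.0468% in Hpr1-PrA and 0.0802% in no-tag wild-type pulldowns, and 0.764%, 1.27%, 0.782%, 0.759% and 0.733% in the total RNA of the same strains in the same order. Without both rRNA genes the pulldown shares were 0.0047%, 0.1001%, 0.00595%, 0.0193% and 0.0386% and the total RNA shares 0.475%, 1.07%, 0.585%, 0.589% and 0.581%. Open reading frames alone gave the same values but for 0.584% in Cbp80-PrA wild-type total RNA.

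Pulldown depth limits the members beyond 21S_RRNA and AI1: 12 of 22 had no count in any pulldown.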

Other observations

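The table also lists 24 transfer RNA genes of the mitochondrial genome under other identifiers. They held 55 counts in all 30 libraries together, on 6 of the 24 genes, and were not among the members.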
